A study of Canis lupus familiaris with 24 samples.

Results

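CD4, CD8A and KLRD1 are surface receptor genes of T cells and natural killer (NK) cells, and they were measured here in lymph nodes of dogs with B-cell lymphoma, sampled by fine needle. Their probes on the array were found by matching the accession of every non-control probe to dog RefSeq gene names. The match gave 3 genes with 4 probes, of 832 genes with a symbol and 43603 probes in all. CD4 had 1 probe, CD8A had 2 probes and KLRD1 had 1 probe. No probe or gene sequence was used here.

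Peripheral lymph nodes were aspirated in 4 dogs at a drug-sensitive and again at a drug-resistant phase, and total RNA from each was run on 1-colour Agilent arrays. There were 3 arrays for each dog and phase, which makes 8 groups and 24 arrays. The comparison in the design was between the phases of each dog. Dog 1 was a male Shih Tzu aged 10 years, dog 2 a male Doberman aged 9 years, dog 3 a castrated male French Bulldog aged 3 years and dog 4 a spayed female French Bulldog aged 5 years. All 8 groups shared the diagnosis of B-cell lymphoma, and the sources used here do not name the drugs. Nothing in the labels says whether the 3 arrays of a group came from separate aspirates, so p-values within a dog measure only the spread between these arrays, which may be technical. The dog is the replicate for any statement across animals, and there were 4.

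CD4 is the coreceptor of helper T cells and binds MHC class II, and in dogs it is also carried by neutrophils. CD8A encodes the alpha chain of the coreceptor of cytotoxic T cells, which binds MHC class I. KLRD1 encodes CD94, which pairs with NKG2 proteins to form MHC class I receptors on NK cells and on some CD8 T cells. In a lymph node with B-cell lymphoma these genes are usually read as a measure of the T and NK cells that are aspirated with the tumour cells.

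Markers of the labelled cell type were read first. The B cell markers MS4A1, which encodes CD20, and CD40, a receptor for T cell help, were the 2 of 12 listed B cell markers on the array with a symbol. Both were well above background on every array, as were 26980 of 43603 probes, so this alone does not single out B cells. Between 71.0% and 80.9% of spots were well above background per array, no member spot was saturated, and the median correlation between arrays of a group was 0.992. The arrays came on 7 slides, and dog 4 was the only dog without a slide that held both of its phases, so slide and phase cannot be told apart in that dog. Its 3 resistant arrays were also the only ones of a second scan session, which cannot be told apart from phase there either. A level below is the log2 processed signal after subtraction of the array's own upper quartile (75th percentile) of log2 signals, so 0 is that percentile and -1 is a signal lower by a factor of 2. Levels of different probes are not set against each other, because probes differ in brightness.

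In dog 2 all 4 probes fell from the sensitive to the resistant phase, by 2.63-fold for CD4, 28.7-fold and 112-fold for the CD8A probes and 85.5-fold for KLRD1. Of all probes tested, 10.1% were called lower in that dog. For the dimmer CD8A probe and KLRD1 these sizes depend on the background: the log2 changes of -6.81 and -6.42 became -5.44 and -4.62 from the raw median signal and -4.75 and -3.85 with normexp and quantile normalisation, and 1 of 3 resistant arrays of KLRD1 was not well above background. The sensitive phase of dog 2 was also the group with the highest level of each of the 4 probes. KLRD1 fell in dogs 1 and 3 as well, by 2.95-fold and 2.78-fold, calls that were lost with normexp, and in dog 4 its change was -0.03 with a 95% interval of -0.19 to 0.14. The brighter CD8A probe passed the test in dog 2 only, whereas the dimmer CD8A probe fell in all 4 dogs, with its calls in dogs 1, 3 and 4 lost from the raw median signal and with normexp. Of all probes tested, 7.75%, 5.45% and 1.57% were called lower in dogs 1, 3 and 4. CD4 fell in dog 2 only, a call also lost with normexp, and in dog 4 it was higher in the resistant phase by less than 2-fold. A change was called where limma's moderated test, fitted over 34550 probes with Benjamini-Hochberg adjustment, gave an adjusted p under 0.05 and the change was at least 2-fold.

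**Figure D1:**
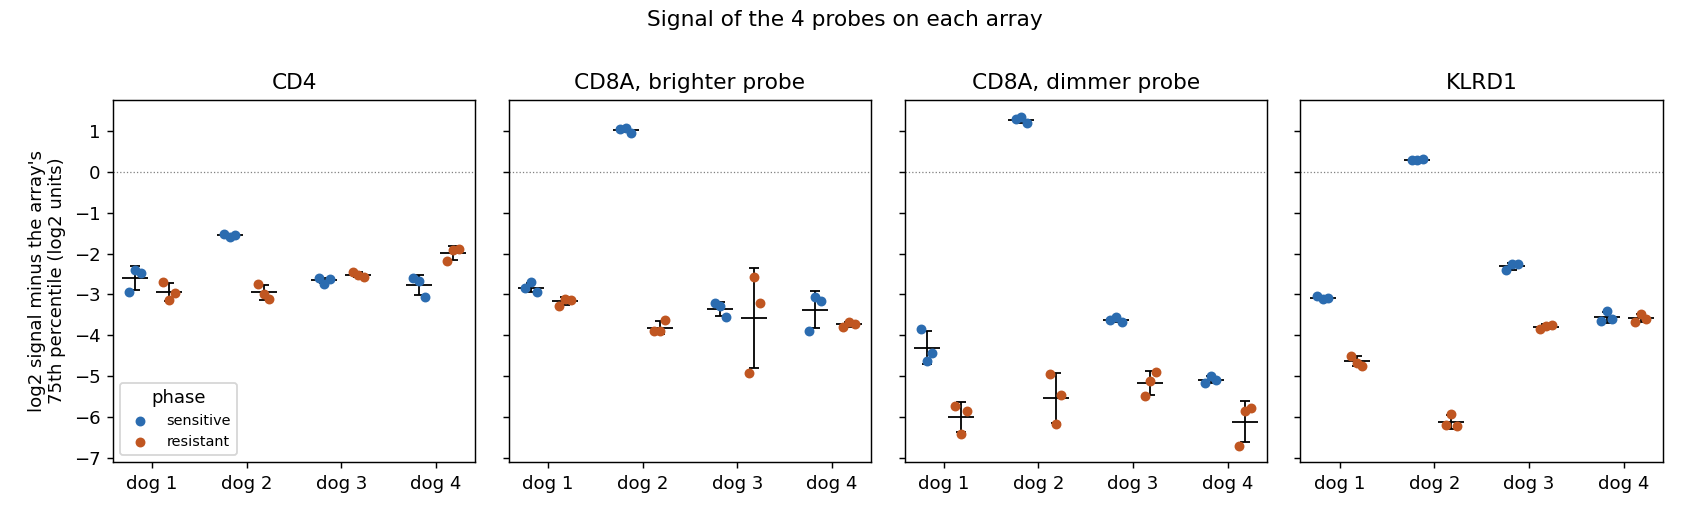
Each point is 1 array, in log2 units relative to the array's 75th percentile (dotted line at 0), with the mean and SD of 3 arrays per dog and phase drawn as a bar with whiskers. The sensitive phase of dog 2 stands above every other group in all 4 panels, and only there do the CD8A and KLRD1 probes lie above 0.

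CD4 was well above background on all 24 arrays. In dog 1 its level was -2.94, -2.41 and -2.48 on the sensitive arrays and -2.70, -3.13 and -2.97 on the resistant arrays. These groups overlapped. The change was -0.32 (SE 0.15, 95% interval -0.63 to -0.02), with an adjusted p of 0.0676 by limma, so CD4 did not pass the test in dog 1.

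In dog 2 CD4 stood at -1.53, -1.60 and -1.54 in the sensitive phase and at -2.75, -2.99 and -3.12 in the resistant phase. Every resistant array lay below every sensitive array. The change of -1.39 (SE 0.15, 95% interval -1.70 to -1.09) had a limma adjusted p of 1.33e-07. With normexp and quantile normalisation it was -0.98, just under 2-fold, and the call was lost. CD4 was among the 2610 probes, or 7.55% of those tested, with a change that low in this dog.

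In dog 3 the CD4 level was -2.61, -2.74 and -2.63 in the sensitive phase and -2.44, -2.53 and -2.57 in the resistant phase. The resistant arrays were all slightly higher, without overlap. The change of 0.14 had a 95% interval of -0.17 to 0.45 and a limma adjusted p of 0.462. The interval uses the spread pooled over all 8 groups. Within dog 3 the SDs were 0.070 and 0.067.

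In dog 4 CD4 was higher in the resistant phase. Its level was -2.61, -2.67 and -3.06 in the sensitive phase and -2.19, -1.90 and -1.88 in the resistant phase, with no overlap. The change of 0.79 (SE 0.15, 95% interval 0.48 to 1.09) had a limma adjusted p of 0.000242 but was 1.73-fold, under the 2-fold limit for a call.

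For CD4 the sensitive phase of dog 2 was highest (mean -1.56 ± 0.038, SD, n = 3 arrays), followed by the resistant phase of dog 4 (-1.99 ± 0.17). Neither overlapped its neighbour in this order. The remaining 6 groups ran from -2.52 to -2.95, and each overlapped the next, so neighbours in that order do not differ beyond the array spread.

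CD8A was read by 2 probes, whose calls differed outside dog 2. The probe with the higher mean log2 level over the 24 arrays is called the brighter probe, although the other read higher in the sensitive phase of dog 2, and it was well above background on every array. The other is called the dimmer probe, and it was well above background on every array except 1 resistant array of dog 4.

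In dog 1 the brighter CD8A probe read -2.84, -2.71 and -2.94 in the sensitive phase and -3.28, -3.11 and -3.13 in the resistant phase. The resistant arrays were all lower. The change of -0.34 had a 95% interval of -1.12 to 0.45 and a limma adjusted p of 0.458. The spread of this probe was pooled over all 8 groups, whose SD ran from 0.057 in the sensitive phase of dog 2 to 1.22 in the resistant phase of dog 3.

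In dog 2 the brighter CD8A probe was at 1.06, 1.06 and 0.96 in the sensitive phase, above the array's 75th percentile, and at -3.91, -3.90 and -3.63 in the resistant phase. No array of either phase came near the other phase. The change was -4.84 (SE 0.37, 95% interval -5.63 to -4.06), with a limma adjusted p of 1.95e-09. The probe was among the 76, or 0.220% of those tested, with a change that low in this dog.

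In dog 3 the brighter CD8A probe read -3.22, -3.30 and -3.54 in the sensitive phase and -4.93, -2.57 and -3.22 in the resistant phase. The resistant arrays spanned the whole sensitive range, and resistant replicate 1 lay lowest of all 24 arrays for this probe. The change of -0.22 (95% interval -1.01 to 0.56) had a limma adjusted p of 0.668. Resistant replicate 1 decided its sign: without it the change was 0.45. That array shared a slide with the sensitive arrays of dog 3, and within this slide the change was -1.58, with a limma adjusted p of 0.000307, which rests on the same array. Over all alternatives its adjusted p ran from 0.000307 to 0.870.

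In dog 4 the brighter CD8A probe was at -3.90, -3.07 and -3.16 in the sensitive phase and -3.81, -3.67 and -3.73 in the resistant phase. The groups overlapped through sensitive replicate 1. The change of -0.36 had a 95% interval of -1.14 to 0.43 and a limma adjusted p of 0.457.

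The dimmer CD8A probe in dog 1 was at -3.86, -4.62 and -4.43 in the sensitive phase and at -5.73, -6.42 and -5.87 in the resistant phase. In dog 2 it went from 1.30, 1.34 and 1.20 to -4.95, -6.18 and -5.46. In both dogs the resistant arrays lay well below the sensitive ones. The limma changes were -1.70 (SE 0.28, adjusted p 5.53e-05) in dog 1 and -6.81 (SE 0.28, adjusted p 2.91e-13) in dog 2. In dog 2 the dimmer CD8A probe was among the 12 probes of those tested with a change that low.

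In dog 3 the dimmer CD8A probe went from -3.63, -3.56 and -3.69 in the sensitive phase to -5.50, -5.13 and -4.91 in the resistant phase. In dog 4 it went from -5.17, -5.01 and -5.10 to -6.71, -5.86 and -5.80, where the lowest of these was the array not well above background. Neither pair of groups overlapped. The limma changes were -1.55 (SE 0.28, adjusted p 0.000177) in dog 3 and -1.03 (SE 0.28, adjusted p 0.00630) in dog 4. The dog 4 value is 2.04-fold, just past the limit. It lost its call without sensitive replicate 2, at -0.99, and without resistant replicate 1, at -0.74, and with slide as a random block, at -0.97 with a limma adjusted p of 0.0729. Over all alternatives tried for this value, the adjusted p ran from 0.000566 to 0.0729.

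The resistant levels of the dimmer CD8A probe were close to the lowest signals that count as well above background, which lay between -7.30 and -6.23 on the 24 arrays. From the raw median signal, which has no background subtracted, its change was smaller and no longer 2-fold in dogs 1, 3 and 4, at -0.85, -0.88 and -0.28. With normexp background correction and quantile normalisation it was -0.50, -0.57 and -0.31. In dog 2 the call held under both, at -5.44 and -4.75.

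The CD8A probes had the same direction in each dog, although in dog 3 that of the brighter probe rested on 1 array. The change of the dimmer probe minus that of the brighter probe was -1.37 and -1.97 in dogs 1 and 2, and -1.33 and -0.67 in dogs 3 and 4. In each dog this difference had an exact two-sided permutation p of 0.1, the smallest that 3 arrays against 3 can give. The dimmer probe's change was below the brighter probe's in 4 of 4 dogs, and the dimmer probe's change depended on the background treatment as given above.

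By level, the sensitive phase of dog 2 led both CD8A probes, with means of 1.03 ± 0.057 and 1.28 ± 0.075 (SD, n = 3). It was 14.5-fold above the next group on the brighter probe and 30.0-fold above it on the dimmer probe. Below it, the brighter probe put the sensitive phase of dog 1 at -2.83 ± 0.12, apart from its neighbour, and the other 6 groups between -3.17 and -3.81, each overlapping the next. The dimmer probe put the sensitive phases of dogs 3, 1 and 4 next, at -3.63, -4.30 and -5.09, and the first 2 of these did not overlap their lower neighbours. From the sensitive phase of dog 4 down to the resistant phase of dog 4 at -6.12, neighbours overlapped.

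KLRD1 had the smallest spread between arrays of the 4 probes. In dog 1 its level was -3.04, -3.12 and -3.09 in the sensitive phase and -4.51, -4.67 and -4.75 in the resistant phase. In dog 3 it was -2.41, -2.27 and -2.26 in the sensitive phase and -3.86, -3.77 and -3.74 in the resistant phase. In both dogs the phases were clearly apart. The limma changes of KLRD1 were -1.56 (SE 0.080, adjusted p 1.07e-11) in dog 1 and -1.48 (SE 0.080, adjusted p 4.06e-11) in dog 3. From the raw median signal they were -1.06 and -1.11, just past 2-fold. With normexp and quantile normalisation they were -0.71 and -0.82, under 2-fold, so both calls were lost.

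In dog 2 KLRD1 went from 0.29, 0.28 and 0.31 in the sensitive phase to -6.20, -5.94 and -6.24 in the resistant phase. The sensitive arrays were almost identical and lay above the 75th percentile, whereas 2 of the 3 resistant arrays were well above background and 1 was not. The change was -6.42 (SE 0.080, 95% interval -6.59 to -6.25), with a limma adjusted p of 7.37e-21, and KLRD1 was among the 21 probes of those tested with a change that low. Its size depended on the background treatment: KLRD1 changed by -4.62 from the raw median signal and by -3.85 after normexp with quantile normalisation, and it was called under each.

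In dog 4 KLRD1 was at -3.66, -3.42 and -3.60 in the sensitive phase and at -3.68, -3.48 and -3.60 in the resistant phase. The groups lay on top of each other. The change of -0.03 had an SE of 0.080 and a limma adjusted p of 0.827, and the bounds of its interval given above are far inside 2-fold.

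KLRD1 also had the clearest order of groups. The sensitive phase of dog 2 (0.29 ± 0.014, SD, n = 3) was followed by the sensitive phases of dogs 3, 1 and 4 at -2.31, -3.08 and -3.56, then by the resistant phases of dogs 4, 3, 1 and 2 at -3.59, -3.79, -4.64 and -6.12. Only the phases of dog 4 overlapped as neighbours in this order. Dog 2 thus held both the highest and the lowest level of KLRD1 in the series.

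**Figure D2:**
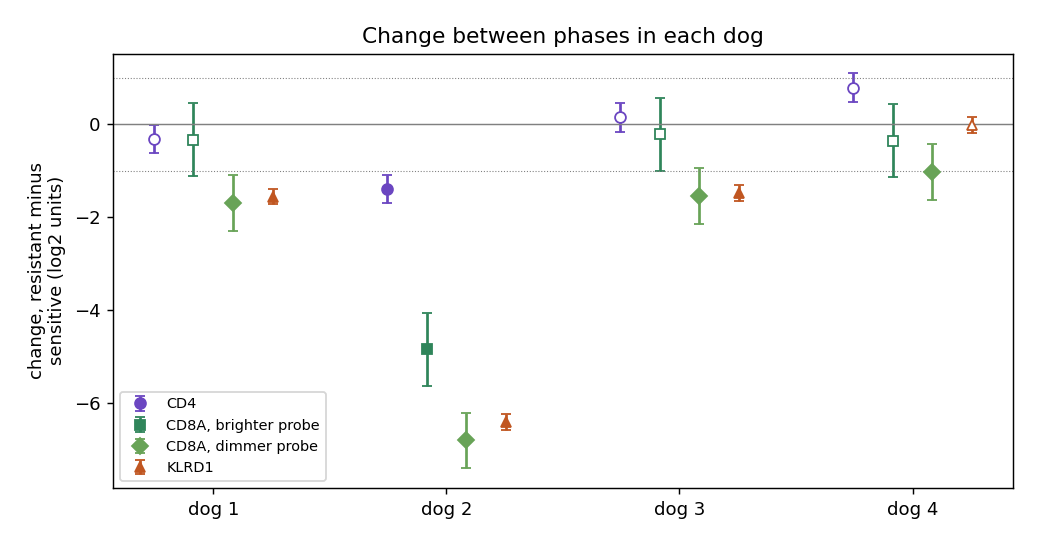
Change from the sensitive to the resistant phase in each dog in log2 units, with its 95% interval from limma (n = 3 arrays per phase). Filled symbols passed an adjusted p under 0.05 and 2-fold (dotted lines at -1 and 1), and dog 2 holds the lowest change of each probe, from -1.39 for CD4 to -6.81 for the dimmer CD8A probe.

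Counted over probes, 2 of 4 were called lower in dog 1, where 7.75% of all probes tested were. In dog 2 it was 4 of 4 (10.1% of all probes), in dog 3 it was 2 of 4 (5.45%) and in dog 4 it was 1 of 4 (1.57%). No member probe was called higher in any dog, where 3.56%, 3.53%, 1.28% and 3.77% of all probes were called higher in dogs 1 to 4. The 4 probes are not 4 independent readings, since 2 of them read CD8A.

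Overlap of the phases was counted too. The resistant arrays lay wholly below the sensitive arrays for 3, 4, 2 and 1 of the 4 probes in dogs 1 to 4, beside 33.6%, 27.6%, 26.5% and 25% of all probes. Of the 4 probes, CD4 alone lay wholly higher in the resistant phase, in dogs 3 and 4, as did 31.5% and 32.1% of all probes there. In dogs 1 and 2 none did, beside 29.8% and 42.8% of all probes.

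Dogs 1 to 3 each had a slide that held both phases. Within that slide CD4 changed by -0.09 in dog 1, -1.41 in dog 2 and 0.22 in dog 3. The brighter CD8A probe changed by -0.45 in dog 1 and -4.78 in dog 2, and the dimmer CD8A probe by -1.43, -6.73 and -1.87 in dogs 1 to 3. KLRD1 changed by -1.43, -6.43 and -1.54 in those dogs. Each of these slides held a single array of 1 of the phases (resistant in dogs 1 and 3, sensitive in dog 2), so the values have no replicate check in that phase.

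Across the 4 dogs, fitted on the 8 group means with dog as a block, none of the 4 probes was called, and neither was any of the 34550 probes tested (0%), although 6.14% had an unadjusted p under 0.05. KLRD1 changed by -2.37 on average (SE 1.08, limma adjusted p 0.839) and the dimmer CD8A probe by -2.77 (SE 1.05, adjusted p 0.801). The brighter CD8A probe changed by -1.44 (SE 0.88, limma adjusted p 0.839) and CD4 by -0.20 (SE 0.37, adjusted p 0.917). The change was below 0 in 4 of 4 dogs for KLRD1 and for each CD8A probe, and in 2 of 4 dogs for CD4. An exact two-sided sign-flip test over dogs gave 0.125 for each of the former, the smallest p that 4 dogs allow, and 0.75 for CD4. Some of the signs behind the 4 of 4 were not settled. KLRD1 in dog 4 was at -0.03, with an interval that spans 0. It turned to 0.0068 with normexp and quantile normalisation and to 0.079 from the raw median signal. The brighter CD8A probe had intervals that span 0 in dogs 1, 3 and 4, and its dog 3 change was 0.45 without resistant replicate 1.

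These averages moved when dog 2 was left out. Without it, the mean change over the other 3 dogs was -1.02 for KLRD1, -1.43 for the dimmer CD8A probe, -0.31 for the brighter CD8A probe and 0.20 for CD4, which turned the sign of CD4. When all 24 arrays were fitted with the group as a random block, the dimmer CD8A probe and KLRD1 passed across dogs (limma adjusted p 0.0227 and 0.0113), in a fit that called 845 probes. Over all alternatives across dogs the highest adjusted p of either probe was 1.00.

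The changes differed between dogs for all 4 probes by limma's F-test of the interaction of dog and phase. Its adjusted p was 2.27e-07 for CD4, 3.55e-07 for the brighter CD8A probe, 7.48e-10 for the dimmer CD8A probe and 6.75e-18 for KLRD1. This is common in these data, since 80.5% of all probes passed the same test. Dog 2 differed from each of the other dogs on each of the 4 probes. In those pairs 60.9%, 52.4% and 56.7% of all probes differed, for dogs 1, 3 and 4 in turn.

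Among dogs 1, 3 and 4, the CD8A probes showed no difference that passed the test in any of the 3 pairs. With slide as a fixed block the brighter CD8A probe differed between dogs 3 and 1, by -1.13 (limma adjusted p 0.0286), beside 0.12 (adjusted p 0.868) without the block. KLRD1 changed more in dogs 1 and 3 than in dog 4, by 1.54 and 1.45 log2 units (limma adjusted p 2.60e-09 and 9.69e-09). Between dogs 1 and 3 the KLRD1 change differed by 0.08, with an adjusted p of 0.557. CD4 in dog 4 differed from dog 1 by 1.11 and from dog 3 by 0.64 (limma adjusted p 0.000182 and 0.0163). Of all probes, 53.9% differed between dogs 1 and 3, 56% between dogs 1 and 4, and 46.2% between dogs 3 and 4.

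Changes of the receptors within a dog were also set against each other, array by array. The change of the brighter CD8A probe minus that of CD4 was -3.45 in dog 2 and -1.15 in dog 4. Each had an exact two-sided permutation p of 0.1, the smallest for 3 arrays against 3, and 0.2 after Benjamini-Hochberg adjustment over 8 comparisons. In dogs 1 and 3 the CD8A change minus the CD4 change was -0.015 and -0.37, with exact p of 1 and 0.8. The change of KLRD1 minus that of the brighter CD8A probe was -1.22, -1.57 and -1.25 in dogs 1 to 3, with exact permutation p of 0.1, 0.1 and 0.3, and in dog 4 the difference was 0.33, with an exact p of 0.4.

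The comparison of KLRD1 with CD8A depended on the probe and on the background. Against the mean of both CD8A probes it was -0.54 in dog 1, -0.59 in dog 2 and 0.67 in dog 4. In dog 2 it was -0.29 from the raw median signal and 0.061 after normexp with quantile normalisation. The order of KLRD1 and CD8A in dog 2 thus changed with the background treatment, whereas CD8A against CD4 in dog 2 stayed between -4.43 and -2.93 over the alternatives tried.

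**Figure D3:**
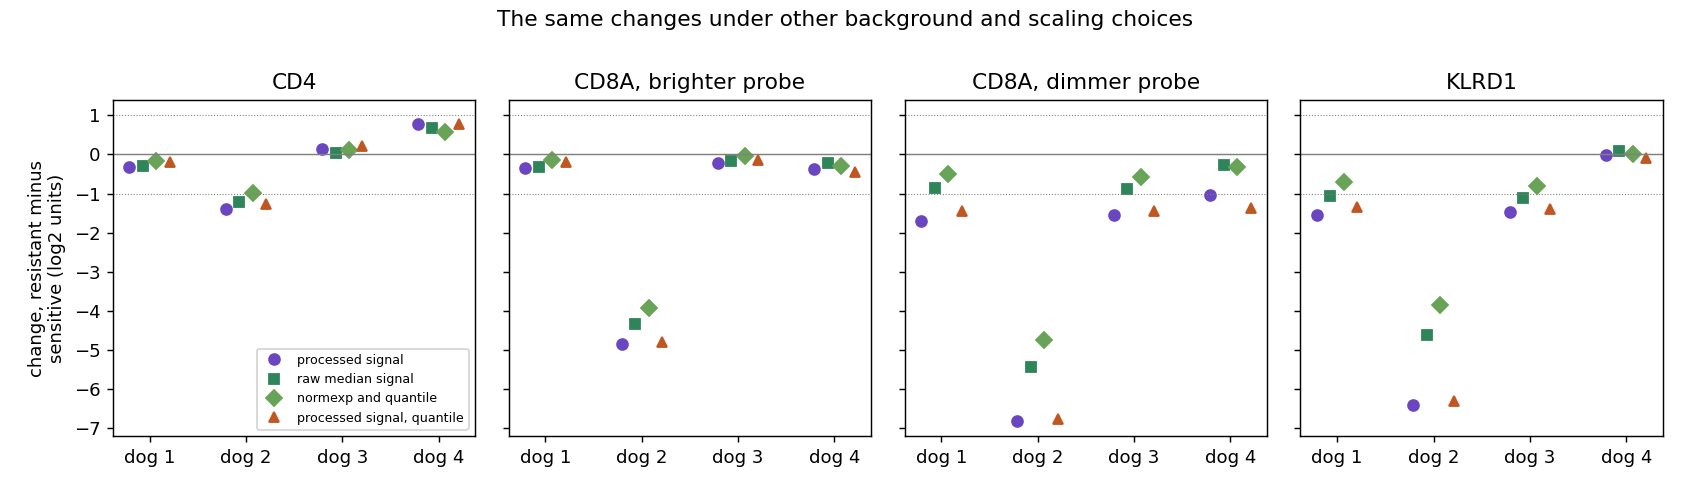
The change of each probe in each dog, in log2 units, under 4 treatments of background and scaling, with dotted lines at 2-fold. The dog 2 changes of CD8A and KLRD1 stay far below -1 under all 4, while the dimmer CD8A probe in dogs 1, 3 and 4 crosses the 2-fold line with the raw median signal or normexp, and CD4 in dog 2 (-0.98) and KLRD1 in dogs 1 and 3 (-0.71 and -0.82) cross it with normexp.

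All these are bulk RNA samples, in which fewer cells of a type and less RNA per cell cannot be told apart. The T cell marker list gave only CD28, the costimulatory receptor of T cells, of 8 genes, and none of the CD3 genes was on the array with a symbol. The NK cell list gave only KLRD1 of 8 genes. Of these marker lists, only CD28 could thus be set beside the members.

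CD28 was called lower in dogs 1 to 3, as KLRD1 was. It was well above background on 3 of 3 sensitive arrays of dog 2 and on 0 of 3 resistant arrays, which makes it at least 29.6-fold lower in the resistant phase, where the bound uses the lowest signal well above background on each array. In dogs 1 and 3 CD28 changed by -1.19 and -1.52 (limma adjusted p 0.00439 and 0.000680), with 1 of 3 resistant arrays of dog 1 well above background. In dog 4 the CD28 change was 0.30 (adjusted p 0.470).

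The lists of pathway genes around the members held 83 symbols, some of them other spellings of the same gene. Of these, 14 were on the array with a symbol and tested. None of 17 genes of the T cell receptor and its signalling was among them, nor the CD4 ligand IL16. Dog 1 had 1 of the 14 called higher and 1 lower, beside 3.56% and 7.75% of all probes. Dog 2 had 0 higher and 5 lower (3.53% and 10.1%), dog 3 had none either way (1.28% and 5.45%), and dog 4 had 0 higher and 1 lower (3.77% and 1.57%). The 5 lower in dog 2 include IFNG, which passed the filter only through the sensitive arrays of that dog. The direction of the IFNG call was thus set by the filter. The median change of the 14 was -0.07, -0.56, -0.03 and -0.005 in dogs 1 to 4, beside -0.05, 0.10, 0.03 and 0.05 for all probes tested.

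Of 12 genes for partners and lineage of CD4 and CD8 T cells, IL2RA, the alpha chain of the interleukin-2 receptor, was the only one measured. It fell in dog 4 by 1.14 on the log2 scale (limma adjusted p 1.28e-13) and its second probe read -1.03 there. Its changes in dogs 1 to 3 were -0.55, -0.39 and 0.14, so the largest change of IL2RA was in the dog where KLRD1 was level. IL2RA is also carried by B cells.

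Of 17 listed symbols of NK receptors and adaptors, which include CD94, another name of KLRD1, 2 were measured. FCER1G, the Fc receptor gamma chain that signals for several NK and myeloid receptors, fell in dog 2 by 2.41 (limma adjusted p 2.25e-11), and its second probe read -2.54. Its changes in dogs 1, 3 and 4 were -0.82, -0.57 and -0.04. NCAM1, which encodes CD56, was well above background on 0 of 3 sensitive and 3 of 3 resistant arrays of dog 1, at least 1.59-fold higher in the resistant phase, and did not pass the test in the other dogs.

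Of 14 cytotoxic effector genes, 2 were measured, and neither granzyme nor perforin genes were among them. CCL5, a chemokine made by activated T and NK cells, fell by 2.91 in dog 1 and 6.24 in dog 2 on the log2 scale (limma adjusted p 9.54e-15 and 6.51e-20). In dogs 3 and 4 CCL5 changed by -0.87 and 0.30, under 2-fold. IFNG, the interferon made by T and NK cells, was well above background only on the 3 sensitive arrays of dog 2, where it was at least 11.7-fold above the resistant phase.

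MHC molecules are the ligands of the 3 receptors, although not every gene listed here encodes one. Of 12 listed class I symbols, some of them other spellings of the same gene, 4 were measured. DLA-79 fell in dog 2 by 2.05 (limma adjusted p 2.16e-13). DLA88, the main classical class I gene, changed by -0.77 in dog 2 and between -0.37 and 0.13 in the other dogs, under 2-fold in each. TAPBP, which loads peptide onto class I, changed by 0.88 in dog 1, and its second probe by 0.47. DLA-64 changed by -0.50 in dog 2, and its other probes read -1.12 and -0.80 there.

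Of 10 class II genes 5 were measured, and DLA-DQA1 fell in dog 2 by 1.06 (limma adjusted p 1.55e-14), with -1.14 on its second probe. DLA-DRA, DLA-DQB1, DLA-DMA and DLA-DOB changed by -0.59, -0.46, -0.53 and -0.20 in dog 2. These class II genes are expressed by the B cells themselves. On these probes the dog 2 changes of class I and class II genes ran from -2.05 to -0.20, beside -4.84 for the brighter CD8A probe and -6.42 for KLRD1.

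**Figure D4:**
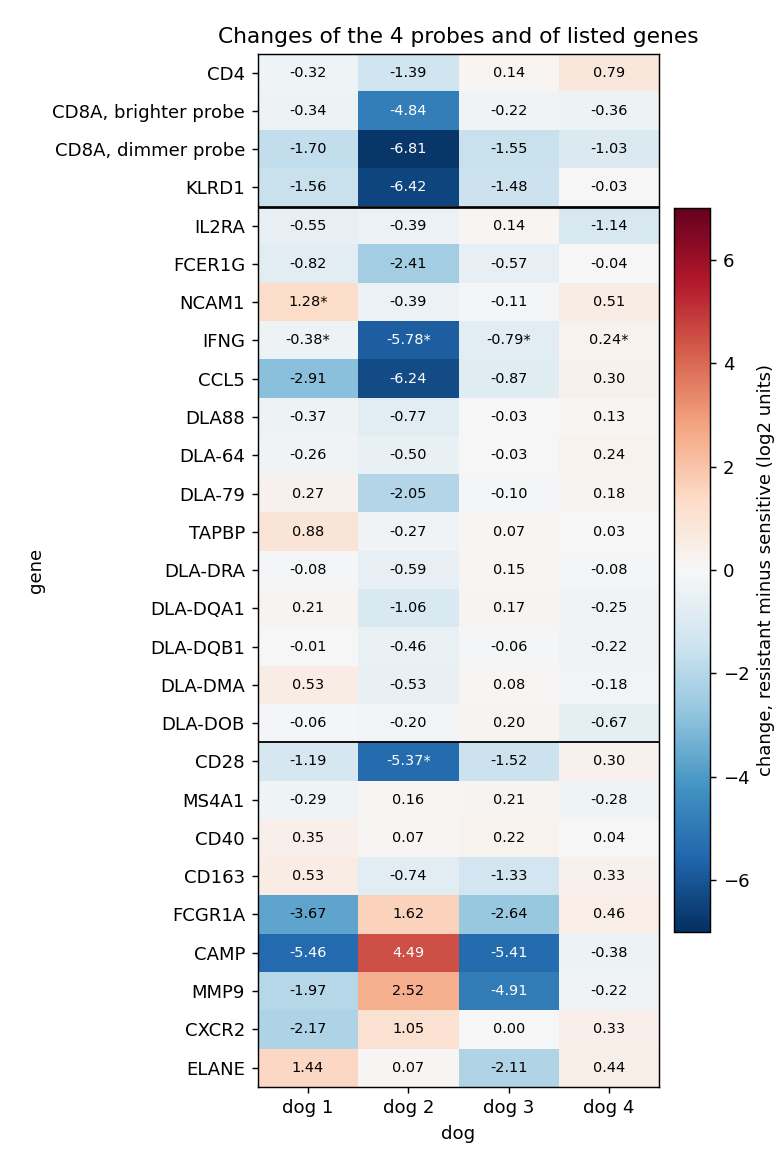
Change from the sensitive to the resistant phase in log2 units for the 4 probes (top block), the 14 pathway genes measured (middle block) and marker genes of other cells (bottom block), on the brightest probe of each gene. A star marks a gene with no array well above background in at least 1 phase, where the value is no fold. CD8A, KLRD1 and CCL5 share the deep values of dog 2, and CAMP and MMP9 are higher there. The dog 2 values of CD28 and IFNG are starred. IFNG passed the filter only through the sensitive arrays of dog 2, which set its direction there.

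Markers of other cells moved between the phases too. The 4 of 11 neutrophil markers measured, CAMP, MMP9, CXCR2 and ELANE, had a summed signal, in units of the array's 75th percentile, of 2.16 to 2.35 in the sensitive and 0.239 to 0.296 in the resistant phase of dog 1. In dog 3 it was 3.17 to 3.27 and then 0.121 to 0.159. In dog 2 it went the other way, with 0.0922 to 0.144 in the sensitive phase and 1.09 to 1.13 in the resistant phase. In dog 4 it was 0.479 to 0.591 and then 0.429 to 0.449. Such a sum leans on its brightest probe, which was that of CAMP in the sensitive phases of dogs 1 and 3 and in the resistant phase of dog 2. Single markers departed from the sum: ELANE was called higher in dog 1, at 1.44 (limma adjusted p 0.00560), and CXCR2 changed by 0.0012 in dog 3. ELANE was well above background on only 1 of 3 sensitive arrays of dog 1, so the size of that change is uncertain. The probes of MMP9 did not all read alike: in dog 4 its brightest probe changed by -0.22, and its other tested probes by 2.71 and -0.01.

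Dog neutrophils carry CD4, so these values stand beside the CD4 result. CD4 fell in dog 2, where the neutrophil sum was higher in the resistant phase, and it did not pass the test in dogs 1 and 3, where the sum was lower. The part of neutrophils in the CD4 levels was not tested.

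The macrophage markers CD163 and FCGR1A, 2 of 11, summed to 1.41 to 1.45 in the sensitive and 0.714 to 0.739 in the resistant phase of dog 1. In dog 2 the sum was 0.181 to 0.195 and then 0.260 to 0.273, and in dog 3 it was 0.399 to 0.412 and then 0.0952 to 0.109. In dog 4 it was 0.0598 to 0.0661 and then 0.0737 to 0.0908. The 2 genes did not move alike: CD163 changed by 0.53 in dog 1 and -0.74 in dog 2, and FCGR1A by -3.67 and 1.62. The B cell sum lay between 54.7 and 82.7 on all arrays, at 73.6 to 77.8 in the sensitive and 78.2 to 82.7 in the resistant phase of dog 2. Its 2 markers did not move alike in each dog: CD40 changed by 0.35 in dog 1 and 0.04 in dog 4, and MS4A1 by -0.29 and -0.28. In dogs 2 and 3 both were higher in the resistant phase, by 0.07 to 0.22. The part of these cells in the CD8A and KLRD1 changes was not tested.

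The summed level of stroma markers was lower in the resistant phase in each dog, though not every marker was. The 4 of 5 measured, the collagen genes COL1A1 and COL1A2, the proteoglycan gene DCN and the pericyte receptor gene PDGFRB, summed to 2.12 to 2.14 and then 0.455 to 0.472 in dog 1. The sum was 6.80 to 7.19 and then 2.41 to 2.68 in dog 2, and 10.1 to 10.6 and then 3.86 to 4.06 in dog 3. In dog 4 it was 3.85 to 4.47 and then 2.86 to 3.00. On their brightest probes 2, 3 and 3 of these genes were called lower in dogs 1 to 3 (7.75%, 10.1% and 5.45% of all probes) and none in dog 4 (1.57%). PDGFRB changed by 0.25 in dog 1 and DCN by 0.12 in dog 4, and other probes of COL1A1, COL1A2 and DCN did not all share the change. In dog 1 COL1A2 changed by -3.13 on its brightest probe and by -3.11 to -0.13 on its others. That brightest probe read highest of the 4 genes in each group, so the sum leans on it and does not weigh the 4 genes alike. The stroma sum was thus lower in the resistant phase in dogs 1 to 3, as KLRD1 was, and also in dog 4, where KLRD1 was level. The part of stroma in the changes of the members was not tested.

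The dendritic cell markers FLT3 and CD1C, 2 of 5, had a summed level of 0.257 to 0.279 in the sensitive and 0.221 to 0.228 in the resistant phase of dog 2. Over the other dogs their sums lay between 0.143 and 0.343. FLT3 was called lower in dogs 1 and 3, at -1.09 and -1.36, and CD1C higher in dog 3, at 1.12.

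Genes with a pattern like each member were looked for among 715 other named genes, by Pearson correlation over the 8 group means. These 8 points share dogs and arrays, and the sensitive phase of dog 2 lies far from the rest, so each value is also given over the other 7 groups. For KLRD1 the most alike genes were ICOS, an inducible costimulator of T cells, at 0.96 and 0.88 without that group. ICOS was well above background on 9 of 24 arrays, and on no array of 5 of those 7 groups, so both values rest largely on signals not above background. Next came IL18, a cytokine that activates NK and T cells, at 0.93 and 0.81, and CD28 at 0.92 and 0.77.

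For CD8A the likeness changed most when that group was left out. CSN2, which encodes the milk protein beta-casein, had 0.97 over 8 groups and -0.44 without the sensitive phase of dog 2, and IFNG had 0.96 and -0.13. Both were well above background on 3 of 24 arrays, those of that group, through which they passed the filter. Their values over 8 groups were thus set by that group, and those without it compare signals not above background. CCL4, a chemokine of activated lymphocytes and macrophages, had 0.95 and 0.54. For CD4 the leading genes were ARSA, a lysosomal sulfatase, at 0.91 and 0.79, CCND1, which encodes cyclin D1, at 0.90 and 0.81, and ICOS at 0.87 and 0.66.

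The members themselves were correlated over the 8 groups at 0.83 for CD8A with KLRD1, 0.79 for CD4 with KLRD1 and 0.74 for CD4 with CD8A. Without the sensitive phase of dog 2 these were 0.47, 0.45 and -0.25. ICOS, the gene most like KLRD1, was at least 11.0-fold lower in the resistant phase in dog 2 and at least 2.27-fold lower in dog 3, and at least 1.45-fold higher in dog 4. In dog 1 ICOS was not well above background in either phase.

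In the RefSeq annotation of the dog genome, CD8A lies next to CD8B, the other chain of the coreceptor. CD4 lies next to LAG3, an inhibitory receptor that also binds MHC class II, and KLRD1 lies near KLRK1, another NK receptor. None of these neighbours was on the array with a symbol, so their levels were not analysed here.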

How the data were processed

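Total RNA of 24 lymph node aspirate samples was hybridised to 1-colour Agilent arrays of 45220 spots, of which 1417 were controls. Per the submitters' processing notes, and also per the file headers, the authors read the scans with Agilent Feature Extraction 10.7.3.1, whose processed signal is a background-subtracted intensity. The deposited value table equals the raw median intensity on all 24 arrays (largest difference 0, column medians 97 to 141), so its scale is linear and it is neither normalised nor centred. The genome build was not given in the sources used here.

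Here, outlier spots were left out, spots of 1 probe were averaged, and log2 processed signal was scaled to each array's 75th percentile (676 to 1118). A probe was tested if in some group all 3 arrays were well above background (34550 probes, with all 4 member probes). Symbols came from dog RefSeq accessions without versions (832 of 35908 identifiers matched). limma 3.58.1 in R 4.3.3 fitted 8 groups within dogs, and group means with dog as a block across dogs. 3 probes gave no value in dog 1. The script was tested on simulated data. Normexp ran on the median signal, with offset 50, in place of the mean signal.

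Named genes were all member probes, the 2 to 4 listed genes per list with the largest change, and the 3 named genes most like each member; other listed genes are named after their values were seen. Members and lists were chosen with earlier results of these data known. Phases are paired by dog. Replicate numbers do not pair arrays: the deviations of same-numbered arrays correlated between -0.12 and 0.09. The erythroid marker list gave 0 measured genes.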

Additional observations from a re-analysis of the deposited data

Results flagged for a closer look

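Dog 2 stood apart from the other 3 dogs in 4 of 12 sets of dog values examined with Dixon's criterion, which chance meets in about 1 of 20 independent sets. These sets are not independent, since both CD8A probes are among them and levels and changes share arrays. The share of all probes that meet the criterion was not computed, so the count is no measure against chance. Its CD4 level in the sensitive phase was -1.56, with the other dogs between -2.78 and -2.61. Its brighter CD8A probe in that phase was at 1.03, with the others between -3.38 and -2.83. The change of the brighter CD8A probe was -4.84 in dog 2 and between -0.36 and -0.22 elsewhere, and that of the dimmer CD8A probe was -6.81, against -1.70 to -1.03.

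The change between phases differed between dogs for each probe by limma's interaction F-test, with adjusted p of 2.27e-07 for CD4, 3.55e-07 and 7.48e-10 for the brighter and dimmer CD8A probes, and 6.75e-18 for KLRD1. Of all probes 80.5% passed this test.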

How the results depend on the processing

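Of 337 values of the members' changes recomputed under alternatives, 315 kept their direction and their side of the threshold. Several alternatives, such as no filter, outlier spots kept and the replicate block, left the members' log2 changes as they were. The count is thus no measure of how firm the changes are. With normexp and quantile normalisation CD4 in dog 2 changed by -0.98, the dimmer CD8A probe by -0.50, -0.57 and -0.31 in dogs 1, 3 and 4, and KLRD1 by -0.71 and -0.82 in dogs 1 and 3, all under 2-fold, and KLRD1 in dog 4 turned to 0.0068. From the raw median signal the dimmer CD8A probe changed by -0.85, -0.88 and -0.28, and KLRD1 in dog 4 by 0.079. The brighter CD8A probe in dog 3 was -1.58 with slide as a fixed block or within the slide. The dimmer CD8A probe in dog 4 was -0.97 with slide as a random block. The 24-array fit with group as a random block, which counted arrays as partly independent, called the dimmer CD8A probe (-2.77) and KLRD1 (-2.37) across dogs. The cause of these shifts was not tested. Leaving out 1 array, the brighter CD8A probe in dog 3 ranged from -0.73 to 0.45, the dimmer CD8A probe in dog 4 from -1.19 to -0.74 and KLRD1 in dog 4 from -0.078 to 0.047, and leaving out 1 dog, CD4 across dogs ranged from -0.53 to 0.20.

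CD8A minus CD4 was -0.70 in dog 1 and -4.43 in dog 2 with the mean of both CD8A probes, and -3.11 and -2.93 in dog 2 from the raw median signal and normexp. KLRD1 minus CD8A was -0.75 and -0.55 in dog 1 and -0.29 and 0.061 in dog 2 from the raw median signal and normexp, and -0.54, -0.59 and 0.67 in dogs 1, 2 and 4 with the mean of both probes.

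With the replicate block 3871, 4653, 2312 and 1803 probes were called in dogs 1 to 4, against 3906, 4698, 2327 and 1845 without it, and it changed no call of the 4 probes, with KLRD1 in dog 2 at -6.42. Called probes numbered 1002, 1885, 711 and 223 with normexp, 1521, 2625, 1069 and 297 from the raw median signal, and 1800, 2612, 1040 and 539 when probes had to be well above background on all 24 arrays. Without a filter dog 4 had 3021. The 24-array fit across dogs called 845. The share called higher was 31.5%, 26.0%, 19.0% and 70.7%. It was 45.8% in dog 1 and 36.6% in dog 2 with median scaling, which moved the median of all probes by over 0.1 from -0.05 to 0.13 and from 0.10 to 0.24. It was 45.3% in dog 1 and 47.9% in dog 4 with quantile normalisation, 40.4% in dog 4 with normexp, and 8.70% and 49.8% in dogs 3 and 4 from the raw median signal. Background limits the members most at the resistant levels of KLRD1 in dog 2 and of the dimmer CD8A probe.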
